A study of Mus musculus with 6 samples.

Results

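The genes that encode the mitochondrial respiratory chain were examined in mouse cumulus-oocyte complexes before and after an ovulatory hormone. Members were probe sets whose single platform symbol starts with Nduf, Uqcr, Atp5 or Sdh, starts with Cox and a digit from 4 to 8, or is Cycs. The rule took 189 of 45037 probe sets and 95 of 18193 genes. It reads symbols and no measured values, but was chosen with earlier results of these data known. Of these, 171 probe sets and 92 genes were bright enough to be tested. The set is wider than subunits alone, since 8 tested Ndufaf genes and 4 tested Sdhaf genes encode assembly factors, which help build a complex without staying in it. The other 80 tested genes encode subunits or cytochrome c. Ndufb4, Cox7a1 and Cox7b2 were too dim to test, with means over the 6 arrays of 4.69, 5.56 and 4.13 on the log2 scale.

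A cumulus-oocyte complex is an oocyte inside its coat of cumulus cells, the granulosa cells that stay with the egg at ovulation. The complexes came from wild-type immature mice primed for 48 h with equine chorionic gonadotropin (eCG), which drives follicle growth. Each of 3 groups had 2 arrays of pooled complexes, taken with no human chorionic gonadotropin (hCG, the ovulatory trigger), 8 h after hCG or 16 h after hCG. The labels place collection in the ovary for the group without hCG and in the oviduct for both later groups, so hormone and place of collection, as labelled, cannot be told apart. The oviduct label of the 8 h group is uncertain, since ovulation normally comes later. The sum of oviduct epithelial markers given below was lower at 8 h than without hCG. Whether it bears on the place of collection was not tested. The labels describe the complexes without hCG as expanded, although cumulus expansion normally follows the ovulatory signal. No label says that the arrays of a group came from separate animals, so every p given here rests on array-to-array spread alone, which may be technical.

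The respiratory chain passes electrons from NADH (through complex I) and succinate (through complex II) to ubiquinone, complex III, cytochrome c and complex IV, which reduces oxygen. Complexes I, III and IV pump protons, and ATP synthase uses the gradient to make ATP. In the ovary, the oocyte takes up pyruvate supplied by cumulus cells and oxidises it in its own mitochondria, while cumulus cells rely more on glycolysis.

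The 6 arrays had medians of 6.14 to 6.27 on the log2 scale, and Pearson's r over probe sets (no independent replicates of each other) was 0.991 to 0.996 within groups and 0.943 to 0.979 between groups. Transcripts of both expected cell types were present. Each marker sum given here covers all genes of its list on the array, those too dim to test included. The log2 of the summed intensities of 22 oocyte markers (20 tested) was 16.2 to 16.4 without hCG. It was 14.04 to 14.13 at 8 h and 14.2 to 14.5 at 16 h. All 20 tested markers were called lower at 8 h and at 16 h than without hCG. Between 8 h and 16 h 7 were called higher and 8 lower. For 13 cumulus and granulosa markers the sum was 16.7 without hCG, 15.6 to 15.9 at 8 h and 15.3 to 15.4 at 16 h. The sum of 15 leukocyte markers (14 tested) was 12.1 without hCG, 11.93 to 11.997 at 8 h and 13.3 at 16 h. Of the 14 tested, 12 were called higher at 16 h than without hCG (85.7%), beside 20.8% of all genes. The sum of 7 oviduct epithelial markers (4 tested) was 10.7 to 10.9, then 9.97 to 10.15, then 11.9 to 12.3. Its rise at 16 h was not shared by the list. Against no hCG, 3 of the 4 tested were below 0 there, 1 was called lower, and only Ovgp1, the brightest, was called higher (2.99). For 7 ovarian surface epithelial markers (5 tested) the sum was 11.01 to 11.12, 10.3 and 12.5 to 12.6. For 9 theca and stromal markers (8 tested) it was 11.8 to 11.9, 10.8 to 11.2 and 10.2. For 7 endothelial markers (3 tested) the sum was 9.14 to 9.17, 9.67 to 9.82 and 9.81. At 16 h against no hCG its 2 brightest tested markers, Eng and Cdh5, differed by -0.07 and 2.96. For 3 erythrocyte markers (2 tested) it was 8.59 to 8.74, 8.16 to 8.23 and 8.29 to 8.92. These marker sums moved with the groups, and their part in every result below was not tested. In such bulk samples, fewer cells of a type and less RNA per cell cannot be told apart.

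Most respiratory chain genes differed by little between groups, and those that passed the test were mainly lower after hCG. At 8 h against no hCG, 1 of 92 tested genes rose (1.09%) and 13 fell (14.1%), where 16.9% of all 13559 tested genes were called higher and 20.5% lower. At 16 h against 8 h, 3 rose (3.26%) and 6 fell (6.52%), beside 11.8% higher and 9.12% lower among all genes. At 16 h against no hCG, 2 rose (2.17%) and 25 fell (27.2%), beside 20.8% higher and 20.8% lower among all genes. A call means a Benjamini-Hochberg adjusted p under 0.05 in the limma fit. The share of members that fell was below that of all genes in the first 2 comparisons and above it in the last, and each of these orders turned under 1 alternative. With quantile normalization, 23.9% of members fell at 8 h beside 21.6% of all genes. With a replicate block, 14.1% fell from 8 h to 16 h beside 10.4%. Without the second 16 h array, 7.61% stood lower at 16 h than without hCG, beside 14.7%. The share that rose was below that of all genes in all 3 comparisons and under every alternative run. The comparisons share arrays, so their counts are not independent of each other.

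**Figure D1:**
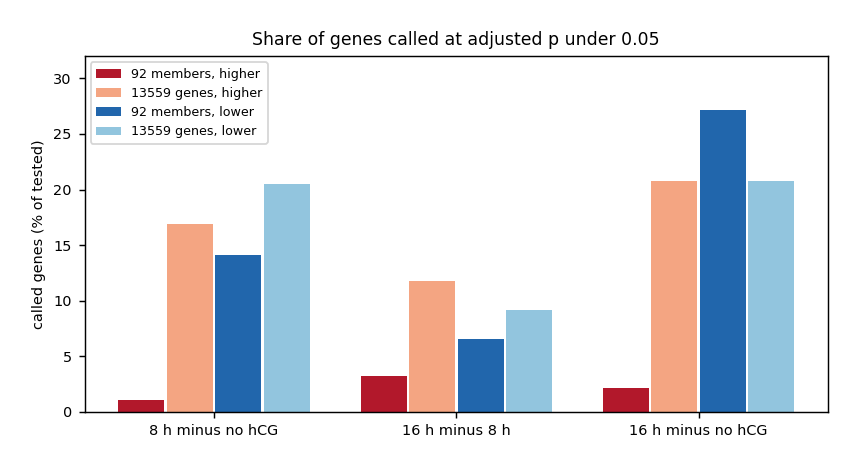
Percentage of tested genes called higher or lower in each of the 3 comparisons (vertical axis), for the 92 respiratory chain genes (dark bars) and all 13559 tested genes (light bars). Dark red bars are the shortest in every comparison, at 1.09%, 3.26% and 2.17%, and the dark blue bar passes its light blue neighbour at 16 h against no hCG, 27.2% beside 20.8%.

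The median log2 difference of the 92 genes was -0.15 at 8 h against no hCG, -0.13 at 16 h against 8 h and -0.28 at 16 h against no hCG. The same medians over all tested genes were -0.02, 0.01 and -0.02. Differences were below 0 for 62, 69 and 75 of the 92 genes, beside 52.3%, 48.3% and 51.5% of all genes. The middle 50% of the members spanned -0.39 to 0.04, -0.30 to -0.002 and -0.56 to -0.06. Large differences were few. An absolute log2 difference of at least 1 was reached by 1 member (1.09%) at 8 h against no hCG, 1 (1.09%) at 16 h against 8 h and 2 (2.17%) at 16 h against no hCG, beside 18.0%, 9.09% and 20.2% of all genes. These were Ndufa4l2 in the first 2 comparisons, and Atp5e and Ndufaf4 in the last.

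**Figure D2:**
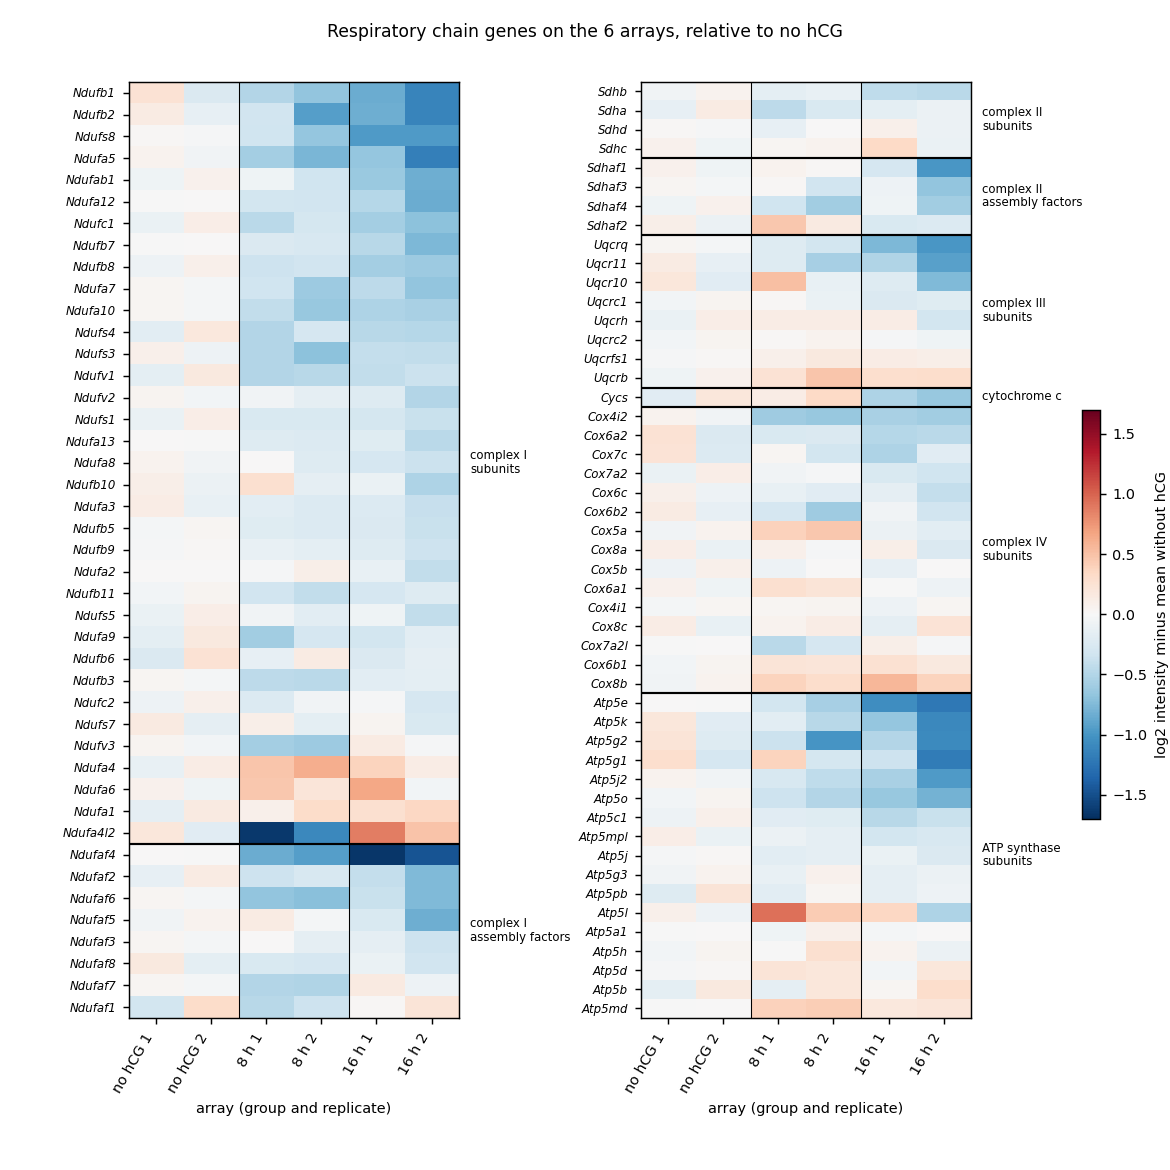
Log2 intensity of each tested respiratory chain gene on each of the 6 arrays, minus the gene's mean over the 2 arrays without hCG (colour; blue is lower, red is higher). Rows are genes grouped by complex and ordered within it by the difference of 16 h and no hCG, and columns are arrays. Pale colours prevail, and the deepest blues are Ndufa4l2 at 8 h and Ndufaf4 at 16 h.

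With 2 arrays per group, 1 array could decide many calls. Of the 13 genes that fell at 8 h, 3 kept the call without the first 8 h array and 2 without the second, while 6 and 10 kept it without the first and second array without hCG. The counts of members called lower in those 4 fits were 5, 2, 9 and 12 of 92, beside 14.6%, 14.5%, 20.2% and 18.8% of all genes. Of the 6 that fell between 8 h and 16 h, 1 kept the call without the first 8 h array, 1 without the second, 0 without the first 16 h array and 1 without the second, and the counts called lower then were 1, 1, 3 and 1, beside 4.82%, 5.16%, 5.8% and 4.73% of all genes. Of the 25 that fell between no hCG and 16 h, 20 kept the call without the first 16 h array and 7 without the second, and the counts were 22 (23.9%) and 7 (7.61%), beside 16.7% and 14.7% of all genes. The median difference of the 92 members was -0.36 and -0.21 in these 2 fits. It was -0.27 and -0.28 without the first and second array without hCG. The standard error of a member's difference was 0.16 at the median and ran from 0.15 to 0.32. The smallest difference that was called was -0.45 (Ndufb3) at 8 h, 0.54 (Ndufaf7) at 16 h against 8 h and -0.45 (Sdhb) at 16 h against no hCG. Scaling moved the split at 8 h as well, to 2 higher and 8 lower when each array was centred on its median.

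Genes of this chain are a classic target set of the transcription factors NRF1 and GABP, so their promoters were read for both motifs. RefSeq windows of 300 bases around the start site (250 before, 50 after; build GRCm38.p6) existed for 79 of the 95 genes, in 84 windows. The NRF1 motif was searched as GCGCANGCG and the ETS motif that GABP binds as CCGGAAG, on both strands, with exact letters. NRF1 letters occurred in 24 of 84 member windows (28.6%), beside 6.25% of all 32851 windows and 11.8% of the 13863 windows of tested genes. ETS letters occurred in 22 (26.2%), beside 8.86% and 15.6%, and those of YY1, AAGATGGCG, in 7 (8.33%), beside 1.40% and 2.61%. The median GC content was 59.0% in member windows, 60.3% in those of tested genes and 52.7% in all, so the tested genes are the closer comparison. A match is a description of these letters and no evidence that a factor binds. The 4 windows printed here belong to genes that fell between no hCG and 16 h, and capitals mark the match.
Ndufaf4, chr4:24897833-24898132, plus strand, NRF1 letters on both strands at overlapping positions: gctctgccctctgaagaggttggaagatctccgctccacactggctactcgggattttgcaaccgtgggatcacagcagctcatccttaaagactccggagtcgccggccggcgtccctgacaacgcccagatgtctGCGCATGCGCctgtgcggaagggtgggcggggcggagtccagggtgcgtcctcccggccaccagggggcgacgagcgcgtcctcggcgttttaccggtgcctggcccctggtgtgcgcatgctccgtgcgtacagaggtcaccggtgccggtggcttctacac
Cycs, chr6:50566520-50566819, minus strand, NRF1 letters: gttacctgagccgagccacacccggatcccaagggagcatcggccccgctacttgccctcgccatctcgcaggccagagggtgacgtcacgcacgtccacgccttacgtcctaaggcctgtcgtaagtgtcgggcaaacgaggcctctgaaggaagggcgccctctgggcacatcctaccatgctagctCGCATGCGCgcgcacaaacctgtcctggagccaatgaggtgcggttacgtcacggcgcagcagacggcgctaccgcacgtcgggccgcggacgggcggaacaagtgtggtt
Atp5e, chr2:174464052-174464351, minus strand, ETS letters: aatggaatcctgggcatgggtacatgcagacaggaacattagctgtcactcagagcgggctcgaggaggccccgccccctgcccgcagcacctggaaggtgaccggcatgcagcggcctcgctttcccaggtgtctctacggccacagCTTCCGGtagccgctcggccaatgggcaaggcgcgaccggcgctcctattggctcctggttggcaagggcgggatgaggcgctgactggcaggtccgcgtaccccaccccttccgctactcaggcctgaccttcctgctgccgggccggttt
Ndufs8, chr19:3912725-3913024, minus strand, ETS letters: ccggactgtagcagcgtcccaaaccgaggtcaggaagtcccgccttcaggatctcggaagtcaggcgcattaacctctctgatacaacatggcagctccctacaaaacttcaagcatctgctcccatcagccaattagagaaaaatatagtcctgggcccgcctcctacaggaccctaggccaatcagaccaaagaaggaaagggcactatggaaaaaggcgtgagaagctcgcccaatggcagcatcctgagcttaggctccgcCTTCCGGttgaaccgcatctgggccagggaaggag
The windows differ in which motif they hold, and all 4 genes were chosen from those that fell. Over members with a tested value and a window, the median difference of 16 h and no hCG was -0.33 for the 22 with NRF1 letters, 7 of which were called lower, and -0.25 for the 54 without, 15 of which were called lower. For ETS letters the medians were -0.21 with (22 genes, 7 lower) and -0.31 without (54 genes, 15 lower).

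Complex I is the NADH dehydrogenase that opens the chain. Genes named as its subunits, Ndufa4 and Ndufa4l2 included, were 35 of the 92 tested members. They held 10 of the 14 calls at 8 h. There 9 fell (25.7%) and Ndufa4 rose (2.86%), with a median of -0.26, beside 20.5% lower and 16.9% higher among all genes. At 16 h against 8 h 2 rose (5.71%) and 0 fell, with a median of -0.11, beside 11.8% higher and 9.12% lower. At 16 h against no hCG 11 fell (31.4%) and Ndufa4l2 rose (2.86%), with a median of -0.33. Of all genes, 20.8% were lower and 20.8% higher. Differences below 0 were seen in 29, 26 and 30 of the 35 genes.

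Ndufa4l2 had the largest rise among all members and the largest fall at 8 h. It encodes a paralog of Ndufa4 that is known to be induced by low oxygen and to dampen respiration. Its log2 intensities were 9.49 and 9.11 without hCG, 7.66 and 8.20 at 8 h, and 10.16 and 9.79 at 16 h. The arrays of the 3 groups did not overlap, the 8 h arrays being lowest and the 16 h arrays highest. The gene fell by 1.37 ± 0.23 (SE) at 8 h, a 2.58-fold difference (limma, adjusted p = 0.00124), and rose by 2.04 ± 0.23 from 8 h to 16 h, a 4.12-fold difference (limma, adjusted p = 0.000257). Both calls held with any 1 array of the groups compared left out. The rise of 0.68 over the level without hCG (limma, adjusted p = 0.0412) was lost without the second array without hCG (adjusted p = 0.155), the first 16 h array (adjusted p = 0.262) or the second (adjusted p = 0.0626). Both 8 h comparisons use the same 8 h arrays, so a low 8 h value enters both.

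Ndufa4, the paralog of Ndufa4l2 and now assigned to complex IV, went the other way at 8 h. Its log2 intensities were 10.21 and 10.46 without hCG, 10.80 and 10.95 at 8 h, and 10.72 and 10.46 at 16 h. Both 8 h arrays lay above every other array, and 1 of the 16 h arrays matched the higher array without hCG. Ndufa4 rose by 0.54 ± 0.17 at 8 h (limma, adjusted p = 0.0338), the only member that rose in that comparison, and differed by -0.29 from 8 h to 16 h and by 0.25 from no hCG to 16 h, neither called. The rise was lost without either 8 h array (adjusted p = 0.0895 and 0.208) or the first array without hCG (adjusted p = 0.133).

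Ndufv3, an accessory subunit of the arm that takes electrons from NADH, was low at 8 h only. It measured 11.26 and 11.17 without hCG, 10.63 and 10.59 at 8 h, and 11.35 and 11.19 at 16 h. Both 8 h arrays lay below the other 4, which overlapped. It fell by 0.60 ± 0.15 at 8 h (limma, adjusted p = 0.0121) and rose by 0.66 ± 0.15 to 16 h (adjusted p = 0.0144), leaving a difference of 0.06 from no hCG that was not called. The fall was lost without either 8 h array (adjusted p = 0.0695 and 0.0897), and the rise without either 8 h array (adjusted p = 0.0955 and 0.106) or the first 16 h array (adjusted p = 0.1).

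Of the core subunits, which carry the flavin and the iron-sulfur clusters or shape the quinone site, 6 were tested. Ndufs8, which holds 2 of the clusters, had the largest difference. Its brightest probe set read 13.27 and 13.23 without hCG, 12.91 and 12.60 at 8 h, and 12.29 and 12.29 at 16 h. The groups did not overlap and stood in the order of time. Ndufs8 fell by 0.50 at 8 h (limma, adjusted p = 0.0402) and by 0.96 ± 0.16 by 16 h (adjusted p = 0.00124). The first of these calls was lost with any of the 4 arrays compared left out (adjusted p = 0.0516 to 0.329), the second with none. Of its 6 tested probe sets 5 were called lower at 16 h than without hCG, by 0.88 to 1.36, and the dimmest differed by -0.03. Ndufs3 fell by 0.60 and Ndufv1, the NADH-binding subunit, by 0.49 at 8 h (limma, adjusted p = 0.0156 and 0.0439), and their 16 h differences from no hCG were -0.41 and -0.39, not called. The Ndufs3 call was lost without the second 8 h array (adjusted p = 0.149) or the first without hCG (adjusted p = 0.0587), and that of Ndufv1 without the first or second 8 h array (adjusted p = 0.185 and 0.168) or the second without hCG (adjusted p = 0.185). Ndufs1, Ndufs7 and Ndufv2 had no call, with differences of 16 h and no hCG of -0.34, -0.10 and -0.36.

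Among the accessory subunits, which surround the core, Ndufb1, Ndufb2 and Ndufa5 had the lowest values at 16 h relative to no hCG. Ndufb1, a small protein of the membrane arm, read 8.79 and 8.30, then 8.04 and 7.87, then 7.70 and 7.42. Its groups did not overlap, and it fell by 0.98 ± 0.20 by 16 h (limma, adjusted p = 0.0035), a call kept with any array left out. At 8 h it fell by 0.59 (adjusted p = 0.0455), lost without either 8 h array (adjusted p = 0.0996 and 0.231) or the first without hCG (-0.34, adjusted p = 0.23). Ndufb2, of the same arm, read 11.78 and 11.51, then 11.32 and 10.71, then 10.82 and 10.52, so that 8 h and 16 h overlapped. It fell by 0.98 ± 0.22 (adjusted p = 0.00668), lost without the second 16 h array (adjusted p = 0.074). Ndufa5, of the arm that faces the matrix, read 11.73 and 11.61, then 11.09 and 10.89, then 11.01 and 10.51. Both later groups lay below no hCG and overlapped each other. It fell by 0.68 ± 0.19 at 8 h (adjusted p = 0.0217; lost without either 8 h array, adjusted p = 0.055 and 0.148, or the first without hCG, adjusted p = 0.0631) and by 0.91 ± 0.19 by 16 h (adjusted p = 0.00452, kept throughout).

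The other 7 complex I subunits that fell by 16 h did so by 0.53 to 0.73. They were Ndufab1, the mitochondrial acyl carrier protein, at -0.73, Ndufa12 at -0.66, Ndufc1 at -0.64, Ndufb7 at -0.62, Ndufb8 at -0.59, Ndufa7 at -0.56 and Ndufa10 at -0.53. All 7 calls were lost without the second 16 h array, where the differences were -0.63, -0.48, -0.58, -0.48, -0.57, -0.44 and -0.52 in that order. The call of Ndufa10 was also lost without the first 16 h array (-0.55) or the first without hCG (-0.50). That of Ndufb8 was also lost without the first 16 h array (-0.62). That of Ndufa7 was also lost without the first array without hCG (-0.52). Ndufs4, a subunit needed for a stable NADH arm, showed how far probe sets of 1 gene can differ. Its brightest probe set gave -0.48 at 16 h against no hCG, not called, and 2 dimmer ones gave -1.09 and -2.29, both called, while the dimmest gave -0.06.

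The complex I assembly factors held the most changed gene at 16 h. Of 8 tested, 3 fell at 8 h (37.5%, median -0.36), beside 20.5% of all genes. From 8 h to 16 h 1 rose and 1 fell (12.5% each, median -0.07), beside 11.8% and 9.12%. At 16 h 3 were below no hCG (37.5%, median -0.40), beside 20.8%. Ndufaf4, a chaperone of early complex I intermediates, read 11.24 and 11.22 without hCG, 10.39 and 10.30 at 8 h, and 9.57 and 9.76 at 16 h. The arrays stepped down group by group without overlap. Ndufaf4 fell by 0.89 ± 0.15 at 8 h (limma, adjusted p = 0.0015), by a further 0.68 ± 0.15 to 16 h (adjusted p = 0.0128) and by 1.57 ± 0.15 in all, a 2.96-fold difference (adjusted p = 3.54e-05). The middle step was lost without either 8 h array (adjusted p = 0.12 and 0.0689) or the first 16 h array (adjusted p = 0.096), and the other calls with no array. Its second, dimmer probe set gave -0.21 (not called), -0.82 and -1.03 (both called).

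Ndufaf6 fell by 0.69 at 8 h (limma, adjusted p = 0.0106) and stood 0.56 lower at 16 h than without hCG (adjusted p = 0.0254). Without the first or second 8 h array its first call was lost (adjusted p = 0.0572 and 0.0715), and without the second 16 h array or the first without hCG its second (adjusted p = 0.169 and 0.0673). Ndufaf7, a methyltransferase that acts on a core subunit, fell by 0.50 at 8 h and rose by 0.54 to 16 h (adjusted p = 0.0323 and 0.04), both lost without either 8 h array (adjusted p = 0.139 and 0.16 for the fall, 0.193 and 0.197 for the rise), the fall also without the first array without hCG (adjusted p = 0.0852), and the rise also without either 16 h array (adjusted p = 0.217 and 0.0664). Ndufaf2 fell by 0.58 by 16 h (adjusted p = 0.0292), lost without the second array of either group (adjusted p = 0.192 without that of 16 h, 0.114 without that of no hCG). Ndufaf1, Ndufaf3, Ndufaf5 and Ndufaf8 had no call, with differences of 16 h and no hCG from -0.55 to 0.12.

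**Figure D3:**
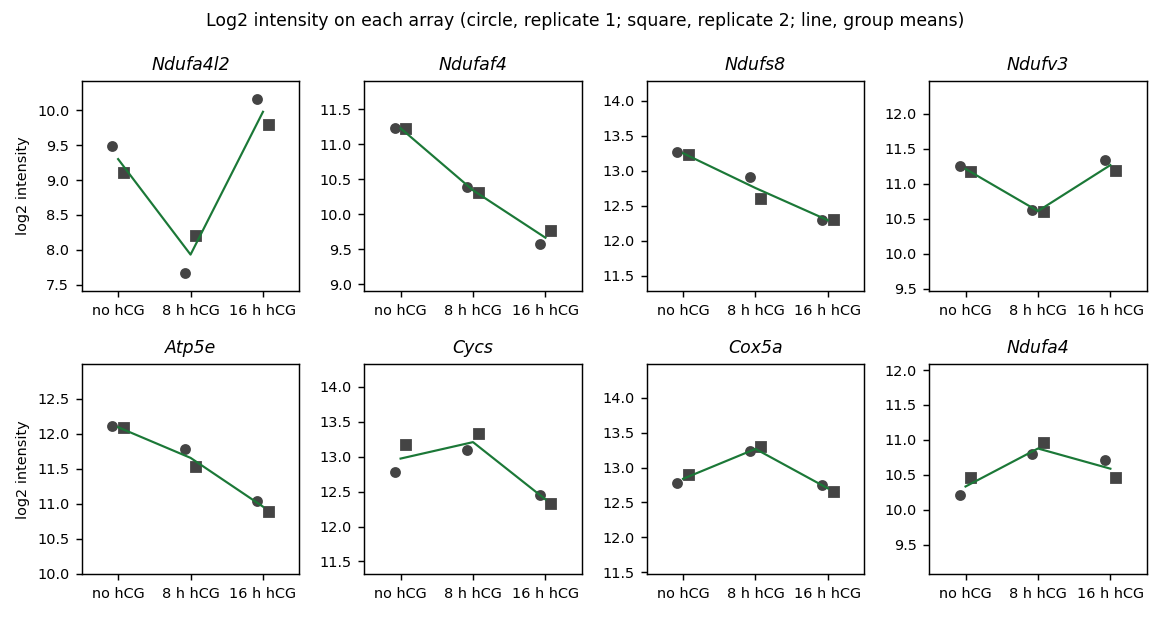
Log2 intensity (vertical axis, 3 units tall in every panel) of 8 genes on the 2 arrays of each group (circle, replicate 1; square, replicate 2), with a line through the group means. Ndufa4l2 and Ndufv3 dip at 8 h, Ndufaf4, Ndufs8 and Atp5e step down over both times, Cycs and Cox5a are highest at 8 h and lower at 16 h, and Ndufa4 is highest at 8 h.

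Complex II, succinate dehydrogenase, joins the citric acid cycle to the chain, and its 4 subunits showed small differences. Sdhb, the iron-sulfur subunit, read 12.49 and 12.62, then 12.39 and 12.43, then 12.12 and 12.09. Its groups did not overlap, and it fell by 0.45 ± 0.15 by 16 h (limma, adjusted p = 0.0383), the only subunit called in any comparison. The call was lost without either 16 h array (adjusted p = 0.11 and 0.126) or the second array without hCG (adjusted p = 0.112). Sdha, the flavoprotein, and the membrane anchors Sdhc and Sdhd differed from no hCG by -0.13, 0.12 and -0.003 at 16 h, and Sdha by -0.35 at 8 h, none called.

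Of the 4 complex II assembly factors, Sdhaf2, which inserts the flavin into Sdha, fell by 0.55 from 8 h to 16 h, close to the threshold (limma, adjusted p = 0.0499). That call was lost with any of the 4 arrays left out (adjusted p = 0.0776 to 0.379). Sdhaf1, which helps mature the clusters of Sdhb, fell by 0.63 between no hCG and 16 h (adjusted p = 0.0473), lost without the second 16 h array (-0.28, adjusted p = 0.312) or the first or second without hCG (adjusted p = 0.125 and 0.0527). Without the first 16 h array it was -0.99. Sdhaf3 and Sdhaf4 had no call, at -0.38 and -0.33.

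Complex III passes electrons from ubiquinol to cytochrome c. Of its 8 tested subunits, 0 were called at 8 h (median 0.08), beside 16.9% higher and 20.5% lower among all genes. From 8 h to 16 h, 1 of 8 fell and 0 rose (median -0.20), beside 9.12% lower and 11.8% higher. At 16 h against no hCG, 2 of 8 fell and 0 rose (median -0.16), beside 20.8% lower and 20.8% higher. Uqcrq, a small subunit beside the quinone site, read 11.86 and 11.80, then 11.61 and 11.51, then 11.07 and 10.84. Its groups did not overlap. It fell by 0.61 ± 0.16 from 8 h to 16 h (limma, adjusted p = 0.0246) and by 0.88 ± 0.16 between no hCG and 16 h (adjusted p = 0.00172). The first call was lost with any of the 4 arrays left out (adjusted p = 0.0527 to 0.183), the second with none. Both rest on 1 probe set whose suffix, _s_at, marks probes shared between transcripts, and the other 3 tested probe sets, all dimmer, gave -0.07, -0.23 and -0.18 at 16 h against no hCG, not called.

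Uqcr11 fell by 0.72 by 16 h (limma, adjusted p = 0.0185), lost without the second 16 h array (adjusted p = 0.151) or the first without hCG (adjusted p = 0.0749). The catalytic and core members had no call. Uqcrfs1, the Rieske iron-sulfur protein, differed by 0.11, and the core proteins Uqcrc1 and Uqcrc2 by -0.23 and -0.05 at 16 h. Uqcrb had 2 tested probe sets that disagreed in their calls. The brighter gave 0.36 at 8 h and 0.29 at 16 h against no hCG, not called, and the dimmer 0.81 and 0.58, both called higher.

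Cytochrome c, the soluble carrier between complexes III and IV that also triggers caspases when released, was lower at 16 h. Cycs read 12.78 and 13.17 without hCG, 13.10 and 13.32 at 8 h, and 12.45 and 12.32 at 16 h. The 16 h arrays lay below the other 4, which overlapped. The difference at 8 h was 0.24, not called. Cycs fell by 0.82 ± 0.18 from 8 h to 16 h (limma, adjusted p = 0.0116) and stood 0.58 ± 0.18 below no hCG (adjusted p = 0.0289). The first call was lost without the second 8 h array (adjusted p = 0.104) or either 16 h array (adjusted p = 0.0618 and 0.0964), and the second without either 16 h array (adjusted p = 0.0833 and 0.148) or the second without hCG (-0.39, adjusted p = 0.133). Its other 2 tested probe sets gave -1.08 and -1.37 from 8 h to 16 h and -1.05 and -1.002 against no hCG, all called lower.

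Complex IV, cytochrome c oxidase, had few calls. Of 15 tested subunits, Ndufa4 not counted, 1 fell at 8 h (6.67%) and 1 fell from 8 h to 16 h (6.67%). Among all genes, 20.5% and 9.12% were lower. At 16 h against no hCG 1 rose and 1 fell (6.67% each), beside 20.8% and 20.8%. Medians in the order of comparisons were -0.04, -0.06 and -0.07. Cox5a, a matrix-side subunit, read 12.78 and 12.90, then 13.24 and 13.29, then 12.75 and 12.66. Both 8 h arrays were highest, and no hCG lay close above 16 h. Its difference at 8 h, 0.43, was not called (limma, adjusted p = 0.0525), and it fell by 0.56 ± 0.15 to 16 h (adjusted p = 0.0277), a call lost with any of the 4 arrays left out (adjusted p = 0.09 to 0.175).

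Several complex IV subunits come as pairs of a common and a restricted isoform. Cox4i2, the lung and hypoxia-linked isoform of subunit 4, was dim, at 6.56 and 6.43 without hCG, 5.89 and 5.85 at 8 h, and 5.95 and 5.91 at 16 h. Both later groups lay below no hCG. It fell by 0.63 at 8 h (limma, adjusted p = 0.00897) and stood 0.57 below no hCG at 16 h (adjusted p = 0.0136). Its first call was lost without either 8 h array (adjusted p = 0.0577 and 0.0742), its second without either 16 h array (adjusted p = 0.0539 and 0.067). The common isoform Cox4i1 differed by 0.04, -0.06 and -0.02 in the 3 comparisons, none called.

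Cox8b, the heart and muscle isoform of subunit 8, was also dim, at 5.84 and 5.95 without hCG, 6.28 and 6.20 at 8 h, and 6.46 and 6.28 at 16 h. Every array after hCG lay above those without. It rose by 0.47 by 16 h (limma, adjusted p = 0.0367), lost without the first or second 16 h array (adjusted p = 0.177 and 0.0617) or the first without hCG (adjusted p = 0.111). The common Cox8a and the testis form Cox8c differed by -0.07 and 0.04 at 16 h. The common Cox6a1 and heart Cox6a2 differed by -0.05 and -0.47, the common Cox6b1 and testis Cox6b2 by 0.21 and -0.19, and Cox7a2 and its relative Cox7a2l by -0.30 and 0.04, none called.

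ATP synthase, which turns the proton gradient into ATP, had 17 tested genes and 0 calls at 8 h (median -0.07). Of all genes, 16.9% were higher and 20.5% lower there. From 8 h to 16 h 1 was lower (5.88%, median -0.17), beside 9.12% of all genes. At 16 h 5 were lower than without hCG (29.4%, median -0.18), beside 20.8%. Atp5e, the epsilon subunit of the rotor stalk, read 12.10 and 12.08, then 11.78 and 11.53, then 11.03 and 10.88. The arrays stepped down without overlap between groups. Its difference at 8 h was -0.44, not called (limma, adjusted p = 0.0622). It fell by 0.70 ± 0.16 from 8 h to 16 h (adjusted p = 0.0145), lost without the first 8 h array (adjusted p = 0.16) or either 16 h array (adjusted p = 0.0565 and 0.105), and by 1.14 ± 0.16 between no hCG and 16 h (adjusted p = 0.000396), kept with any array left out. Its probe set is of the _s_at kind.

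Atp5o, which links the catalytic head to the stalk that holds it still, read 12.58 and 12.66, then 12.27 and 12.12, then 11.97 and 11.82. Its groups did not overlap, and it fell by 0.73 ± 0.15 by 16 h (limma, adjusted p = 0.00466), kept with any array left out. Atp5k and Atp5j2, small subunits of the membrane part, fell by 0.88 and 0.76 (adjusted p = 0.00884 and 0.0085), both lost without the second 16 h array (adjusted p = 0.0902 and 0.0753). The rotor ring is made of subunit c, encoded by 3 genes for the same mature protein. Atp5g2 fell by 0.79 (adjusted p = 0.0421), lost without the second 16 h array (-0.49, adjusted p = 0.299) or the first without hCG (adjusted p = 0.167). Atp5g1 differed by -0.77, not called (adjusted p = 0.088), and Atp5g3 by -0.13.

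Of the alpha to epsilon subunits of ATP synthase, only epsilon (Atp5e, given above) had a call. Atp5a1 and Atp5b, the alpha and beta subunits, differed by -0.02 and 0.17 at 16 h from no hCG. Atp5c1, the gamma subunit, differed by -0.42 (limma, adjusted p = 0.0538) and Atp5d, the delta subunit, by 0.07. Atp5l, which helps form dimers, differed widely between groups and between arrays of a group without a call. It read 9.79 and 9.61, then 10.64 and 10.13, then 10.05 and 9.18. The 16 h arrays lay on either side of those without hCG, and its differences of 0.68, -0.77 and -0.08 were not called.

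**Figure D4:**
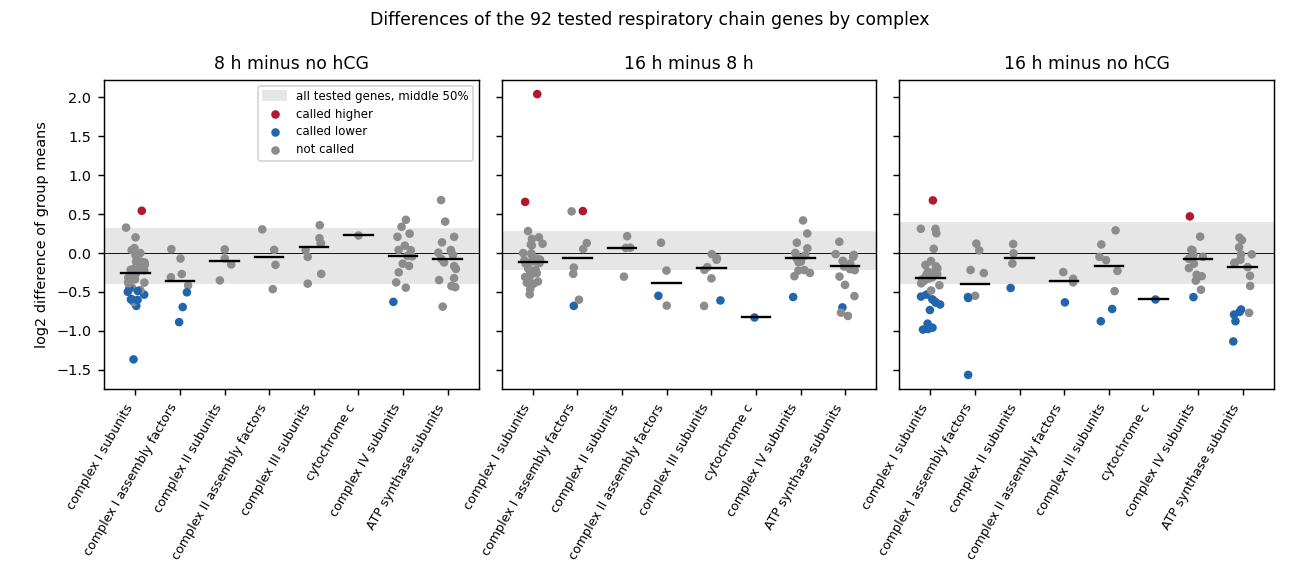
Log2 difference of group means (vertical axis) of the 92 tested genes in each comparison, by complex; each point is a gene, red if called higher, blue if called lower and grey if not called, with a black bar at the median. The grey band holds the middle 50% of all tested genes, and most points lie in or just below it, with Ndufa4l2 far outside it at 8 h and from 8 h to 16 h.

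The only subunit of the mitochondrial genome with a named probe set was ND5, of complex I. It read 12.18 and 12.05, then 12.52 and 12.61, then 12.40 and 11.93, and its differences of 0.45, -0.40 and 0.05 were not called. Assembly factors outside the naming rule numbered 33. At 8 h 0 rose and 8 fell (24.2%), beside 16.9% higher and 20.5% lower among all tested genes. From 8 h to 16 h 4 rose (12.1%) and 1 fell (3.03%), beside 11.8% and 9.12%. At 16 h against no hCG 3 rose (9.09%) and 7 fell (21.2%), beside 20.8% and 20.8%. The same shares of all genes apply to the lists that follow. Nubpl, which delivers iron-sulfur clusters to complex I, fell by 1.86 ± 0.16 at 8 h (limma, adjusted p = 1.89e-05). Cox10, which makes the heme of complex IV, fell by 1.27 ± 0.18 by 16 h (adjusted p = 0.000446), while Coa5 rose by 1.02 (adjusted p = 0.00212) and Uqcc3, a complex III factor, rose by 0.90 from 8 h to 16 h (adjusted p = 0.00394).

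Genes that feed or connect the chain changed in both directions. Of 20 tested genes for ubiquinone and other electron entry, 4 rose and 7 fell at 8 h, 4 rose and 2 fell from 8 h to 16 h, and 2 rose and 6 fell by 16 h. Coq8a, a kinase-like protein of ubiquinone synthesis, read 9.35 and 9.33 without hCG, 7.54 and 7.45 at 8 h, and 9.34 and 9.30 at 16 h. Both 8 h arrays stood well below the other 4. Coq8a fell by 1.84 ± 0.15 at 8 h and rose by 1.83 ± 0.15 to 16 h (limma, adjusted p = 1.31e-05 and 4.02e-05). Its paralog Coq8b rose by 1.498 by 16 h (adjusted p = 0.000231), and Coq7, a late enzyme of the pathway, fell by 1.11 (adjusted p = 0.000447). Coq10b, a ubiquinone-binding protein, fell by 1.03 from 8 h to 16 h (adjusted p = 0.00202). Hccs, which attaches heme to cytochrome c, read 9.88 and 9.73, then 11.19 and 11.22, then 11.31 and 11.25. Every array after hCG was above those without, and it rose by 1.40 ± 0.15 at 8 h (adjusted p = 7.63e-05).

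Of 7 tested carriers and porins, 1 rose and 1 fell at 8 h (14.3% each). From 8 h to 16 h 1 rose (14.3%), and 1 stood lower at 16 h than without hCG (14.3%). Slc25a31, the ADP/ATP carrier of germ cells, fell by 2.58 ± 0.25 at 8 h (limma, adjusted p = 4.26e-05) and by 2.05 ± 0.25 by 16 h (adjusted p = 0.000163), beside oocyte markers that were all lower in both comparisons. Slc25a5, the carrier of most dividing cells, rose by 0.57 ± 0.15 at 8 h (adjusted p = 0.0157), and Vdac1, an outer membrane porin, rose by 0.57 from 8 h to 16 h (adjusted p = 0.0313). Of 12 citric acid cycle genes 0 rose in any comparison and 2, 1 and 2 fell (16.7%, 8.33% and 16.7%). The lowest were Suclg2 at 8 h (-0.996), Dld from 8 h to 16 h (-0.55) and Fh1 at 16 h against no hCG (-0.75).

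Regulators of mitochondrial biogenesis and mitochondrial DNA moved both ways. Of 16 tested, 2 rose and 4 fell at 8 h, 3 rose and 1 fell from 8 h to 16 h, and 8 rose and 3 fell by 16 h. Nrf1, whose motif was counted above, read 9.31 and 9.10, then 8.83 and 8.61, then 8.22 and 7.67. Its groups did not overlap, and it fell by 1.26 ± 0.20 by 16 h (limma, adjusted p = 0.000938). The partners that form GABP went opposite ways by 16 h, as Gabpb1 fell by 1.09 (adjusted p = 0.000638) and Gabpa, the DNA-binding partner, rose by 1.00 (adjusted p = 0.00345). Esrra, a nuclear receptor of energy genes, rose by 1.02 (adjusted p = 0.00219). Tfam, which packs mitochondrial DNA, rose by 0.66 (adjusted p = 0.0166), and so did Tfb2m, at 0.65, and Polg, its polymerase, at 0.76. Tfb2m and Polg had adjusted p-values of 0.00974 and 0.00605. Tfb1m, Twnk and Polg2 had differences of -0.23, 0.06 and 0.51 at 16 h from no hCG, of which that of Polg2 was called. Mterf1a and Yy1 rose by 0.82 and 0.57, Pprc1 fell by 0.60, and Ssbp1, Polrmt and Ppargc1b had no call at 0.11, -0.16 and -0.38. Ppargc1a, the coactivator best known for mitochondrial biogenesis, was too dim to test.

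Mitochondrial ribosomal proteins, which translate the subunits encoded in the organelle, numbered 76. At 8 h 5 rose (6.58%) and 11 fell (14.5%, median -0.19). From 8 h to 16 h 0 rose and 10 fell (13.2%, median -0.25). By 16 h 5 rose (6.58%) and 27 fell (35.5%, median -0.31). Mrpl48 fell by 1.33 ± 0.16 and Mrps23 rose by 0.70 ± 0.15 by 16 h (limma, adjusted p = 0.000164 and 0.00432), and Mrpl41 fell by 0.93 from 8 h to 16 h (adjusted p = 0.0093). Of 21 import genes, 1 rose and 4 fell at 8 h, 0 were called from 8 h to 16 h, with a lowest adjusted p of 0.0809, and 1 rose and 6 fell by 16 h. Timm9, a small chaperone of the intermembrane space, fell by 1.45 ± 0.21 and Timm29 rose by 0.57 ± 0.17 by 16 h. Of 10 antioxidant and uncoupling genes, 2 rose and 2 fell at 8 h, 3 rose and 0 fell from 8 h to 16 h, and 1 rose and 0 fell by 16 h. Gsr, glutathione reductase, rose by 2.48 ± 0.33 by 16 h (adjusted p = 0.00027), and Txnrd2, the mitochondrial thioredoxin reductase, fell by 0.93 at 8 h (adjusted p = 0.00213).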

How the data were processed

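RNA of pooled complexes was hybridised to 6 Affymetrix mouse arrays. The deposited table holds log2 intensities, read as log2 from the values; the authors' software and normalization are not given in the sources used here. Values were used as they stood, without 64 control probe sets. Probe sets with a mean under the 40th percentile, 5.62, were not tested. Means of the 3 groups were fitted over all 6 arrays in limma 3.58.1 (lmFit, eBayes; R 4.3.3; 3 residual and 6.43 prior degrees of freedom), two-sided, with Benjamini-Hochberg adjustment over 27022 probe sets per comparison. Every p after a difference in the text is that adjusted p. A gene was represented by its brightest tested probe set, and 22 members by one ending in _x_at or _s_at, whose probes can match several transcripts. Of 50 members with several tested probe sets, 0 had calls in opposite directions in any comparison. All tested probe sets of a gene had the same call for 39 of the 50 at 8 h against no hCG. The same held for 44 at 16 h against 8 h and 38 at 16 h against no hCG. The probe sets of the remaining genes differed in whether they were called. Platform symbols of all 95 members matched a RefSeq gene by gene number, and 10 probe sets with a second symbol were not used. Named genes were, per complex and comparison, up to 3 called genes at each end, the core subunits and isoform pairs whatever their values, and per other list the called genes at both ends; other members were named after their values were seen. The members and lists were chosen with earlier results of these data known. A run of the fit on simulated data used independent noise and changes at 8 h alone, unlike these arrays. No result given here rests on it. Alternatives were quantile normalization, median centring, no or a 60th percentile filter, only the groups compared, a replicate block, an intensity trend, the mean of a gene's probe sets, no _x_at or _s_at probe sets, and leaving out each array. The 2 arrays per group limit precision, and no detection calls were used, so signal over background is unknown.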

Additional observations from a re-analysis of the deposited data

How the results depend on the processing

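The median difference of the members kept its sign under all alternatives, between -0.26 and -0.11 at 8 h against no hCG, -0.20 and -0.08 at 16 h against 8 h, and -0.38 and -0.21 at 16 h against no hCG. Counts depended more on the setting. At 16 h against no hCG the mean of a gene's probe sets gave the most members called higher, 3 (3.26%), beside 21.5% of all genes. Members called lower at 8 h were 13, against 22 with quantile normalization, 8 with median centring and 2 to 12 with an array left out. Members called higher at 8 h were 1, against 2 with median centring, with no dim filter or with only the groups compared, 3 with the 60th percentile filter or the mean of probe sets, 4 with an intensity trend and 0 to 2 with an array left out. From 8 h to 16 h, 6 were called lower and 3 higher, against 1 to 9 and 1 to 4 with an array left out. At 16 h against no hCG, 25 were called lower, against 36 with quantile normalization, 19 with median centring and 7 to 23 with an array left out, and 2 higher, against 0 to 1 with an array left out and 1 with quantile normalization, no dim filter, the 60th percentile filter or only the groups compared. Calls that held in every alternative that gave the gene a value were Ndufa4l2 and Ndufaf4 at 8 h (2 of 14), Ndufa4l2 from 8 h to 16 h (1 of 9), and Atp5e, Atp5o, Ndufa5, Ndufaf4, Ndufb1 and Ndufs8 at 16 h against no hCG (6 of 27). Atp5e has no value without _s_at probe sets, so its call rests on 14 alternatives and the others on 15. The causes were not tested.

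Deviations of arrays with the same replicate number correlated at 0.468 (no hCG and 8 h), 0.001 (no hCG and 16 h) and 0.135 (8 h and 16 h), so not every pair of groups reached the level set for treating the numbers as pairs. Whether the arrays share a source was not tested. With a replicate block, 19, 13 and 31 members were called lower and 3, 3 and 2 higher, in the order of comparisons above, beside 22.1%, 10.4% and 22.5% lower and 18.5%, 13.7% and 22.6% higher among all genes.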

Other observations

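The first array of each group read above the second in all 3 groups for 35 of the 92 members (38.0%) and for 18.5% of all tested genes, and below it in all 3 for 14 members (15.2%) and 15.9% of all genes. Replicate numbers have no order, and the labels tie no arrays of different groups together. The excess of the first array over the second for Atp5g1 was 0.58, 0.68 and 0.84 in the groups in order of time, and for Atp5g2 it was 0.43, 0.64 and 0.59. For Uqcr10 it was 0.40, 0.63 and 0.53, and for Atp5k 0.40, 0.30 and 0.44. Over the 92 members the median excess was -0.001, 0.03 and 0.15, and over all genes -0.03, -0.01 and 0.05. What the arrays share was not tested.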
